A study of Homo sapiens with 15 samples.

Results

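The genes described here were 8 genes of growth arrest, of the p53 response and of the restraint of mTORC1: GADD45A, GADD45B, CDKN1A, MDM2, SESN1, SESN2, SESN3 and DDIT4. They were taken by symbol from tables of 18338 genes, and all 8 were found. RNA-Seq was performed on Biosensor cells, a line of human embryonic kidney cells (HEK293) that stably carries TauRD(P301S)-YFP, a fluorescent fragment of tau with the P301S change, and all 15 libraries came from this line. The 5 thapsigargin libraries came from cells given 0.3 µM thapsigargin. The 5 PS19 libraries came from cells transfected with brain lysate of PS19 mice, which express human P301S tau from the prion promoter, and the 5 control libraries from cells that received the same kind of lysate from wildtype mice. How long thapsigargin was applied, and whether those cells also received lysate, is not given in the sources used here. The mice were male littermates of 6 months. The replicates are called independent, but separate cultures are not named, so the p values measure the spread between libraries.

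As background, p53 is a transcription factor that is stabilized by DNA damage and other stress, and CDKN1A, MDM2, SESN1 and GADD45A are among its known targets. HEK293 cells carry an adenovirus protein that binds p53. Several of these genes have a known input from a second pathway. Thapsigargin blocks the pump that fills the endoplasmic reticulum (ER) with calcium, and the ER stress that follows activates PERK. PERK phosphorylates eIF2α, which slows translation in general but favours that of the transcription factor ATF4. GADD45A, SESN2 and DDIT4 are known to respond to that pathway in human cells. Sestrins and the DDIT4 protein (REDD1) both restrain mTORC1, the kinase complex that couples amino acids and growth signals to protein synthesis. Sestrins act through the GATOR complexes and REDD1 through the TSC complex.

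Expression was given as FPKM, fragments scaled to the length of the transcript and to the mapped fragments of the library, so that levels can be compared between genes per unit length. Fold changes are differences of log2(FPKM + 0.5) fitted with limma over the 11753 genes that averaged at least 1 FPKM, which included all 8, and a gene was called at a Benjamini-Hochberg adjusted p under 0.1 over all tested genes. Such a fold change understates that of low genes. Library sums were 551499 to 637687 FPKM with thapsigargin, 523601 to 547043 FPKM with PS19 lysate and 506146 to 552511 FPKM with control lysate, and read depth could not be recovered from the values. Thapsigargin replicates 2 and 3 had the lowest mean correlation with their own group over tested genes (0.981 and 0.980, against 0.987 to 0.989 for the other thapsigargin libraries). Of 8 kidney line markers 7 passed the filter (LHX1 did not), and of 13 brain cell markers in the files 2 passed (SYT1 and GAD1). The summed brain markers came to 11.05 to 13.1 FPKM with thapsigargin, 11.8 to 12.7 FPKM with PS19 lysate and 10.5 to 12.7 FPKM with control lysate, and no marker was at 0 in all libraries. These are bulk libraries, in which fewer cells of a type and less RNA per cell cannot be told apart.

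Thapsigargin cells differed from control cells in 5 of the 8 genes, in both directions. GADD45A and SESN2 rose 3.15-fold and 2.87-fold, SESN3 and SESN1 fell, GADD45B fell by a smaller amount, and CDKN1A, MDM2 and DDIT4 did not pass the test. Against control, 2 of the 8 were called higher and 3 lower, which is 62.5% of them. Of all tested genes 69.4% were called in this comparison, 26.0% higher and 43.4% lower, so the share of the 8 that was called was near the background. Their median log2 fold change was -0.03, against -0.13 over all tested genes. For 4 of the 8 the thapsigargin and control ranges did not overlap. The share of all tested genes without overlap was not counted, so this has no background to be set against. PS19 lysate gave no call among the 8, in a comparison that called 0.0425% of all genes.

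**Figure D1:**
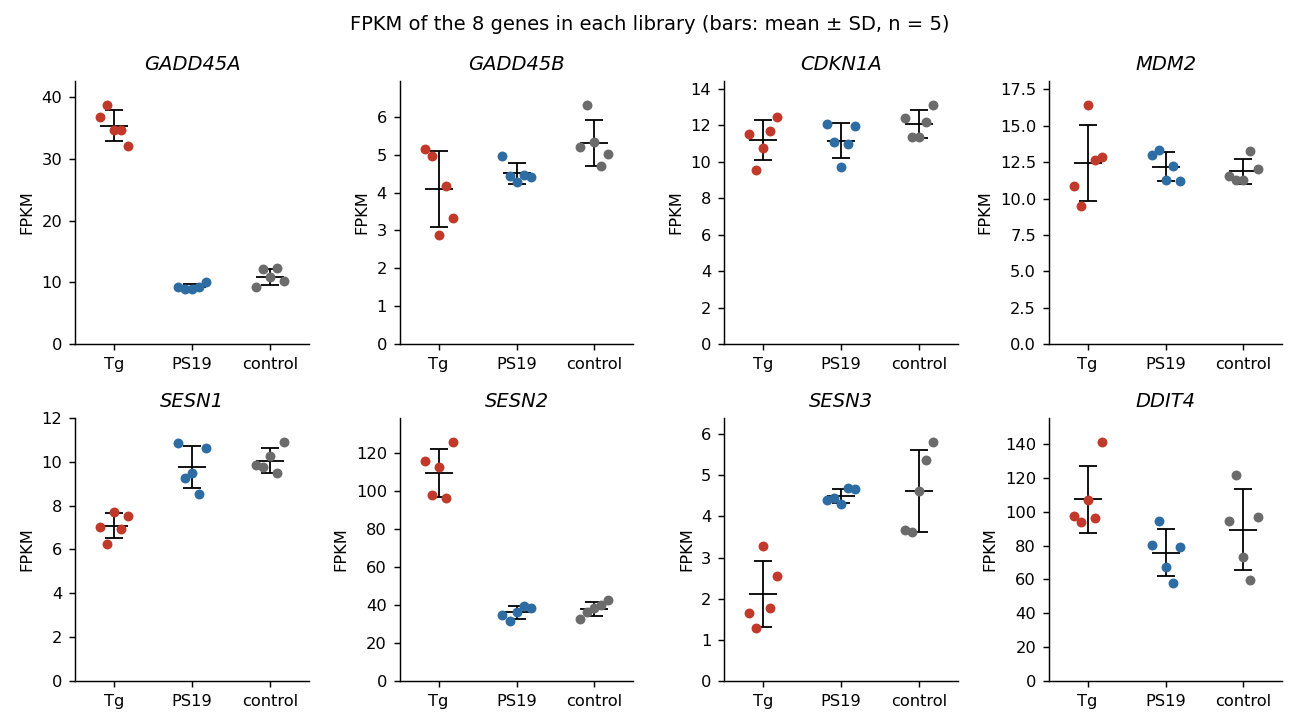
FPKM of each of the 8 genes (vertical axes, starting at 0) in each library of thapsigargin (Tg), PS19 and control cells; points are libraries and bars the mean ± SD (n = 5). GADD45A and SESN2 lay higher in all 5 thapsigargin libraries than in any other library, and SESN1 and SESN3 lower.

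Under the control lysate the genes covered a wide range of levels per unit length. DDIT4 averaged 89.3 ± 23.9 FPKM and SESN2 38.0 ± 3.87 FPKM (SD, n = 5 each), and their ranges did not overlap. CDKN1A (12.1 ± 0.760), MDM2 (11.9 ± 0.849), GADD45A (10.95 ± 1.28) and SESN1 (10.1 ± 0.556 FPKM) followed, each overlapping its neighbour. GADD45B (5.31 ± 0.604) and SESN3 (4.62 ± 0.988 FPKM) were lowest and overlapped each other. In thapsigargin cells SESN2 (110 ± 12.7) and DDIT4 (107 ± 19.7 FPKM) overlapped at the top, and GADD45A (35.4 ± 2.53 FPKM) stood above the remaining 5 genes. In PS19 cells the order was DDIT4, SESN2, MDM2, CDKN1A, SESN1, GADD45A, GADD45B and SESN3, where MDM2 to GADD45A each overlapped the next and GADD45B and SESN3 had nearly equal means (4.50 ± 0.270 and 4.50 ± 0.167 FPKM).

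The GADD45 proteins are small stress sensors that bind the kinase MAP3K4 upstream of p38 and the mitotic kinase CDK1. GADD45A had 36.9, 38.8, 34.7, 34.7 and 32.03 FPKM in the thapsigargin libraries, 9.23, 8.87, 8.97, 9.29 and 10.1 FPKM in the PS19 libraries, and 9.26, 12.2, 10.8, 12.3 and 10.2 FPKM in the control libraries. All thapsigargin libraries stood above all others, whereas PS19 and control libraries overlapped. GADD45A rose by 1.65 on the log2 scale with thapsigargin (SE 0.091, limma adjusted p = 6.0e-08), a 3.15-fold change, and ranked 42 from the top of all tested genes. Its exact permutation p of 0.0079 (two-sided) is the smallest that 5 against 5 libraries can give. Against PS19 cells the log2 difference was 1.87 (SE 0.072, limma adjusted p = 1.9e-09).

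The second member of the family did not follow. GADD45B had 5.16, 4.97, 2.88, 4.18 and 3.32 FPKM in the thapsigargin libraries, 4.97, 4.43, 4.27, 4.45 and 4.40 FPKM in the PS19 libraries, and 5.21, 6.31, 5.32, 4.71 and 5.01 FPKM in the control libraries. Thapsigargin replicates 1 and 2 lay within the control range, and replicates 3, 4 and 5 below every PS19 and control library. GADD45B fell by 0.36 with thapsigargin (SE 0.143, limma adjusted p = 0.044), with an exact permutation p of 0.056. That call depended on scaling and on 1 library: with median-ratio scaling the log2 fold change was -0.24 (adjusted p = 0.21), with quantile normalization -0.09 (adjusted p = 0.69), and without control replicate 2 -0.30 (limma adjusted p = 0.104). Against PS19 cells it was -0.15 (limma adjusted p = 0.35), turning to 0.08 with quantile normalization and called lower after rescaling to TPM (-0.29, limma adjusted p = 0.064).

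A ratio of paralogs within a library does not depend on how the libraries are scaled. GADD45A over GADD45B was 7.14 to 12.1 in thapsigargin cells, 1.86 to 2.30 in PS19 cells and 1.78 to 2.61 in control cells. The thapsigargin ratios did not overlap the others, and the PS19 and control ratios did.

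CDKN1A encodes p21, the inhibitor of cyclin-dependent kinases that carries out p53-dependent arrest in G1. CDKN1A had 11.5, 9.53, 10.8, 11.7 and 12.4 FPKM in the thapsigargin libraries, 12.1, 11.1, 9.72, 10.98 and 11.98 FPKM in the PS19 libraries, and 12.4, 11.3, 11.3, 12.2 and 13.1 FPKM in the control libraries. The 3 groups overlapped throughout. Its log2 fold change with thapsigargin was -0.11 (95% interval -0.30 to 0.08, limma adjusted p = 0.28), and it was 0.02 with median-ratio scaling, 0.03 with quantile normalization, and -0.27 after rescaling to TPM, where it was called lower (limma adjusted p = 0.042). Against PS19 cells the log2 difference was 0.0013 (95% interval -0.19 to 0.19), turning to -0.13 after rescaling to TPM.

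MDM2 encodes the ubiquitin ligase that targets p53 and is itself induced by it. MDM2 had 10.9, 9.48, 16.4, 12.7 and 12.9 FPKM in the thapsigargin libraries, 12.99, 13.3, 11.3, 12.2 and 11.2 FPKM in the PS19 libraries, and 11.5, 11.2, 11.2, 13.3 and 12.1 FPKM in the control libraries. Thapsigargin libraries spread most, with replicate 2 the lowest and replicate 3 the highest of all 15. The log2 fold change was 0.05 (95% interval -0.22 to 0.32, limma adjusted p = 0.75), and it was -0.11 after rescaling to TPM, -0.05 without thapsigargin replicate 3, and 0.19 with quantile normalization, where it was called higher (limma adjusted p = 0.090). Against PS19 cells it was 0.01 (95% interval -0.26 to 0.28), turning to -0.13 after rescaling to TPM.

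Sestrins are stress-induced proteins, of which SESN1 is best known as a p53 target, SESN3 as a FOXO target, and SESN2 as a leucine sensor that binds GATOR2. SESN2 had 116, 97.97, 113, 96.2 and 126 FPKM in the thapsigargin libraries, 34.5, 31.4, 36.3, 39.8 and 38.7 FPKM in the PS19 libraries, and 32.5, 36.2, 38.5, 39.97 and 42.7 FPKM in the control libraries. Every thapsigargin library held more than 2 times the SESN2 level of any other library. SESN2 rose by 1.52 against control (SE 0.097, limma adjusted p = 2.5e-07, exact permutation p = 0.0079), a 2.87-fold change ranked 53 from the top. Against PS19 cells it rose by 1.59 (SE 0.092, limma adjusted p = 7.2e-08).

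The other two sestrins went the opposite way. SESN1 had 7.03, 6.23, 7.73, 6.94 and 7.51 FPKM in the thapsigargin libraries, 10.8, 9.26, 9.50, 8.54 and 10.7 FPKM in the PS19 libraries, and 9.85, 9.76, 10.2, 9.49 and 10.9 FPKM in the control libraries. The thapsigargin libraries lay below all others. SESN1 fell by 0.48 against control (SE 0.081, limma adjusted p = 3.9e-04) and by 0.43 against PS19 cells (SE 0.088, limma adjusted p = 0.0012), each with an exact permutation p of 0.0079. Against control SESN1 ranked 2755 from the lowest of all tested genes, close to their lower quartile of -0.46.

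SESN3 had 1.65, 1.28, 3.29, 1.77 and 2.54 FPKM in the thapsigargin libraries, 4.39, 4.46, 4.31, 4.69 and 4.66 FPKM in the PS19 libraries, and 3.66, 3.63, 4.63, 5.37 and 5.82 FPKM in the control libraries. Thapsigargin libraries again lay below all others, with replicate 3 nearest to the control range. SESN3 fell by 1.01 against control (SE 0.196, limma adjusted p = 9.9e-04) and by 0.99 against PS19 cells (SE 0.168, limma adjusted p = 3.7e-04), each with an exact permutation p of 0.0079. Against control SESN3 ranked 343 from the lowest of all tested genes. With thapsigargin replicates 2 and 3 left out, an alternative chosen after the data were seen, SESN3 fell by 1.04 against control, and 2 of the 8 genes were still called higher and 3 lower.

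SESN2 over SESN1 was 13.9 to 16.8 in thapsigargin cells, 3.19 to 4.66 in PS19 cells and 3.29 to 4.21 in control cells. SESN2 over SESN3 was 34.3 to 76.5 in thapsigargin cells, 7.03 to 8.48 in PS19 cells and 7.33 to 9.97 in control cells. The summed FPKM of the 3 sestrins was 119 ± 13.6 in thapsigargin cells, 50.4 ± 3.48 in PS19 cells and 52.6 ± 5.12 in control cells (SD, n = 5 each). SESN2 made up 92.3 ± 0.831% of that sum with thapsigargin, 71.6 ± 2.32% with PS19 lysate and 72.1 ± 0.970% with control lysate. The sestrin level of thapsigargin cells was higher in sum, and a larger share of it was SESN2.

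**Figure D2:**
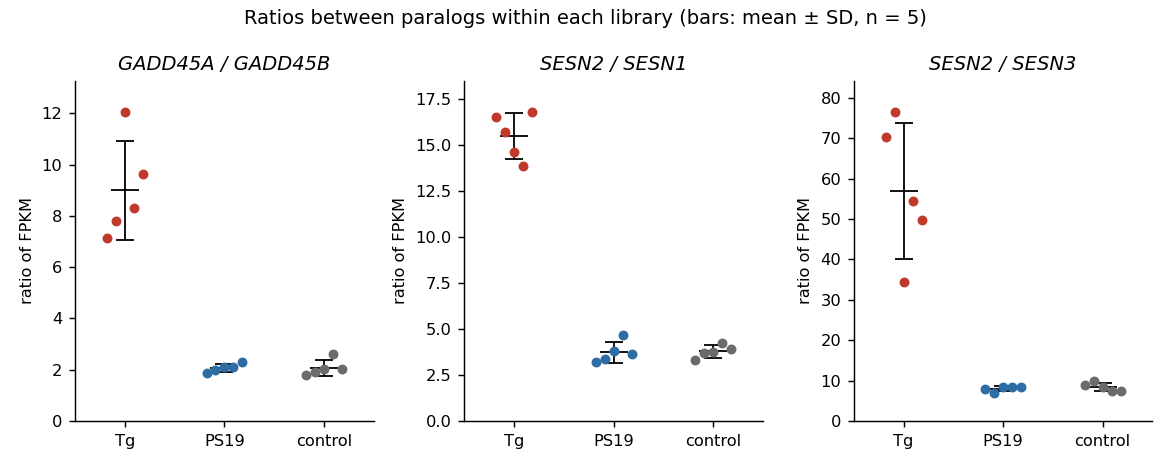
Ratio of FPKM between paralogs within each library (vertical axes, starting at 0) in thapsigargin (Tg), PS19 and control cells; points are libraries and bars the mean ± SD (n = 5). Each ratio was higher in all 5 thapsigargin libraries than in any PS19 or control library.

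DDIT4 was the most abundant of the 8 genes under both lysates. DDIT4 had 97.7, 94.2, 107, 96.5 and 141 FPKM in the thapsigargin libraries, 80.2, 94.3, 67.2, 58.1 and 79.1 FPKM in the PS19 libraries, and 94.6, 122, 73.5, 59.5 and 97.1 FPKM in the control libraries. Control libraries ranged over 2-fold, and thapsigargin replicate 5 stood above all others. The log2 fold change against control was 0.29 (95% interval -0.09 to 0.67, limma adjusted p = 0.16), with an exact permutation p of 0.198. It was called higher with median-ratio scaling (0.42, limma adjusted p = 0.051) and without control replicate 2 (0.41, limma adjusted p = 0.043). Against PS19 cells DDIT4 rose by 0.50 (SE 0.138, limma adjusted p = 0.0073, exact permutation p = 0.016), and the groups overlapped only through PS19 replicate 2.

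All tested genes had a median log2 fold change of -0.13 with thapsigargin against control, and this shift depended on scaling: it was -0.29 after rescaling to TPM, -0.00095 with median-ratio scaling and -0.02 with quantile normalization. Of the genes called, 37.5% were higher (3058 higher and 5100 lower), against 24.1%, 50.5% and 47.3% under those 3 scalings. Relative to the median gene, GADD45A stood 1.78 higher, SESN2 1.65 higher and DDIT4 0.42 higher on the log2 scale, MDM2 0.18 and CDKN1A 0.02. SESN3 stood at -0.88, SESN1 at -0.35 and GADD45B at -0.23. GADD45A, SESN2, SESN1 and SESN3 kept their direction and their call under each of the 3 scalings.

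In the comparison of thapsigargin with PS19 cells, which uses the same thapsigargin libraries, 3 of the 8 genes were called higher (GADD45A, SESN2 and DDIT4) and 2 lower (SESN1 and SESN3). Of all tested genes 68.0% were called, 25.8% higher and 42.2% lower. The median log2 difference of the 8 genes was 0.0061, against -0.11 over all tested genes.

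**Figure D3:**
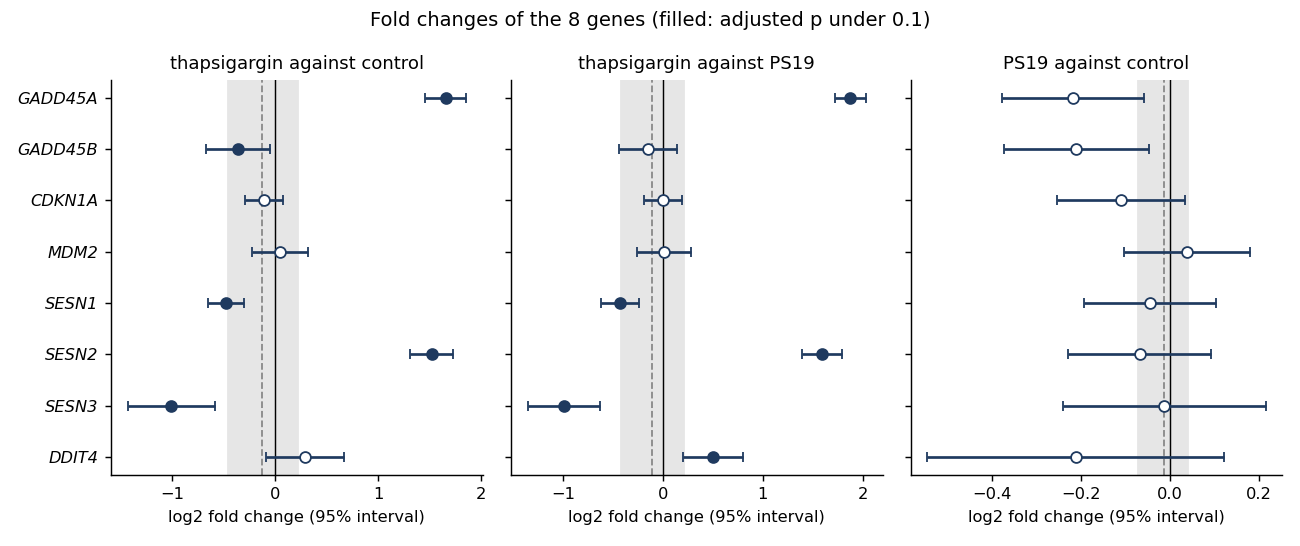
Log2 fold changes with 95% intervals (horizontal axes, narrower in the right panel) of the 8 genes in the 3 comparisons; filled points passed an adjusted p of 0.1, the dashed line is the median and the grey band the interquartile range of all tested genes. With thapsigargin against control, GADD45A at 1.65 and SESN2 at 1.52 stood far right of the band and SESN3 at -1.01 far left. DDIT4 at 0.29 and SESN1 at -0.48 lay just outside it, and no point was filled for PS19 against control.

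PS19 lysate was set against control lysate to ask whether tau aggregation moves these genes. None of the 8 was called higher or lower by limma, where 0.0170% of all genes were called higher and 0.0255% lower (2 and 3 genes). At an unadjusted p under 0.05 there were 2 of the 8 genes and 706 of 11753, or 6.01%. GADD45A had a log2 fold change of -0.22 (95% interval -0.38 to -0.06, limma adjusted p = 0.74, unadjusted exact permutation p = 0.024). GADD45B had -0.21 (95% interval -0.37 to -0.05, limma adjusted p = 0.77, unadjusted exact permutation p = 0.016). Both stayed uncalled after adjustment, and the PS19 and control ranges of both overlapped.

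DDIT4 had a log2 fold change of -0.21 with PS19 lysate, with the widest interval (-0.55 to 0.12), and single libraries moved it: it was -0.09 without control replicate 2, -0.12 without PS19 replicate 4 and -0.35 without control replicate 4. By replicate number, its deviations from the group mean ran alike in both groups. They were 0.10, 0.33, -0.15, -0.36 and 0.08 with PS19 lysate, and 0.12, 0.49, -0.24, -0.54 and 0.16 with control lysate. DDIT4 was lower with PS19 lysate in all 5 same-numbered libraries, and so were GADD45A, GADD45B and CDKN1A, but the numbers were not taken as pairs. With replicate number as a block in the fit DDIT4 stayed uncalled (limma adjusted p = 0.35, against 0.86 without). CDKN1A had -0.11 (-0.25 to 0.03), SESN2 -0.07 (-0.23 to 0.09), SESN1 -0.04 (-0.19 to 0.10), SESN3 -0.01 (-0.24 to 0.21) and MDM2 0.04 (-0.10 to 0.18). For 7 of the 8 genes the value was below 0, as it was for 57.1% of all tested genes, and SESN3 turned to above 0 with median-ratio scaling and with quantile normalization. Their median was -0.09, against -0.01 over all genes. The thapsigargin and PS19 comparisons share the 5 control libraries. Side by side, GADD45A had 1.65 with thapsigargin and -0.22 with PS19 lysate, and SESN2 had 1.52 with thapsigargin and -0.07 with PS19 lysate.

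In the thapsigargin and control libraries MDM2 mostly varied with SESN3 and against GADD45B within the group, and the PS19 libraries did not show this. GADD45B and SESN3 deviated to opposite sides of the group mean in every thapsigargin library. They also did so in control replicates 2, 4 and 5, among them replicate 2 with 0.23 for GADD45B and -0.29 for SESN3. Over the 15 libraries the deviations from group means of log2(FPKM + 0.5) had a Pearson r of 0.81 between MDM2 and SESN3, -0.77 between GADD45B and MDM2 and -0.87 between GADD45B and SESN3. MDM2 and SESN3 deviated to the same side of the group mean in 4 of 5 thapsigargin, 2 of 5 PS19 and 4 of 5 control libraries, and GADD45B and MDM2 in 1 of 5 thapsigargin, 3 of 5 PS19 and 1 of 5 control libraries. GADD45B and SESN3 did so in 0 of 5 thapsigargin, 2 of 5 PS19 and 2 of 5 control libraries. Thapsigargin replicates 2 and 3 lay at the ends for SESN3 (-0.50 and 0.59) and MDM2 (-0.35 and 0.41), and for GADD45B replicates 1 (0.33) and 3 (-0.42) did. Replicates 2 and 3 also had the highest and the lowest FPKM sum of their group, and the part this played in the 3 genes' values was not tested. GADD45A and SESN2, with a Pearson r of 0.98 over all 15 libraries, had 0.10 within groups.

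**Figure D4:**
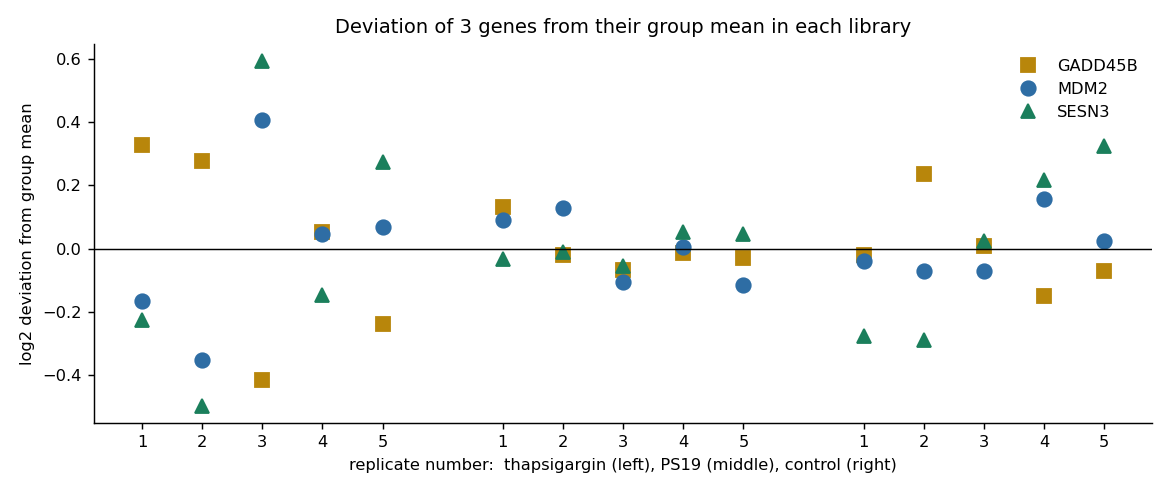
Deviation of GADD45B, MDM2 and SESN3 from their group mean on the log2 scale (vertical axis) in each library, by group and replicate number (horizontal axis). MDM2 and SESN3 lay low in thapsigargin replicate 2 (-0.35 and -0.50) and high in replicate 3 (0.41 and 0.59), where GADD45B lay on the other side; PS19 libraries deviated less.

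The genes whose log2 values were most like each of the 8 over the 15 libraries were found by Pearson r, as a description, since the points share groups and libraries. For GADD45A these were CHAC1 (0.994), DDIT3 (0.993) and SLC7A5 (0.993), with 0.69, 0.61 and 0.69 within groups. DDIT3, which encodes the ER stress factor CHOP, averaged 140 FPKM in thapsigargin cells, 8.28 FPKM in PS19 cells and 10.4 FPKM in control cells. For SESN2 they were SEC61A1 (0.995), SLC1A4 (0.994) and HERPUD1 (0.994), with 0.86, 0.81 and 0.78 within groups.

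For SESN3 they were ANO6 (0.994), EIF4E (0.992) and NDC1 (0.992), all over 0.97 within groups as well, and for SESN1 PAK1 (0.966), LRRIQ3 (0.957) and RHPN2 (0.957). MDM2 was most like PDCD4 (0.951), RAB2A (0.939) and MCL1 (0.916), and GADD45B most like SLC29A4 (0.924), HOXD11 (0.919) and BCL3 (0.913). DDIT4 was most like GTF2H4 (0.889), SNAPC1 (0.854) and GDPD1 (0.805). CDKN1A had the weakest likeness of the 8, to BCL2L1 (0.729), MICB (0.711) and SLC18B1 (0.71).

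Promoters are shown for SESN2 and SESN3, which moved apart with thapsigargin, for DDIT4, which was called against PS19 cells but not against control, and for the p53-responsive start of MDM2. RefSeq windows on GRCh38.p14 from 250 bases before to 50 after a start matched 7 of the 8 genes in 12 windows; GADD45A had no entry. The 250 bases before the start are printed 5′ to 3′ on the gene's strand, with CCAAT boxes (CCAAT), the CCACG motif of ER stress elements, each on either strand, and the p53 response element in capitals. SESN2 lies at chr1:28259268-28259517 (plus strand), SESN3 at chr11:95232476-95232725 (minus), DDIT4 at chr10:72273674-72273923 (plus) and the MDM2 window at chr12:68808767-68809016 (plus).
SESN2: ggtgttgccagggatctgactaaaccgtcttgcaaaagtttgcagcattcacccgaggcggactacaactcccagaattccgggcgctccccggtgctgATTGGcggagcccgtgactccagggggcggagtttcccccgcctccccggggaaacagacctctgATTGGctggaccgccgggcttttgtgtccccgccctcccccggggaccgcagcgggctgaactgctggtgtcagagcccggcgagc
SESN3: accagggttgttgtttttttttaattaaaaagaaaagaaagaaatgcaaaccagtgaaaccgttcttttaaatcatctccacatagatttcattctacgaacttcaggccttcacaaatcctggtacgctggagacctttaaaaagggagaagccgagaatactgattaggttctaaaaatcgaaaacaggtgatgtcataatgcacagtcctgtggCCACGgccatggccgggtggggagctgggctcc
DDIT4: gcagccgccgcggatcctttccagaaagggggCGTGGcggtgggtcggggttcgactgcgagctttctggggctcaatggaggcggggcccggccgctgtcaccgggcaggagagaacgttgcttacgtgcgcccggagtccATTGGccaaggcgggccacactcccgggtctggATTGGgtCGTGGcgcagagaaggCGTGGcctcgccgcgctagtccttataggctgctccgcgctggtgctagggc
MDM2: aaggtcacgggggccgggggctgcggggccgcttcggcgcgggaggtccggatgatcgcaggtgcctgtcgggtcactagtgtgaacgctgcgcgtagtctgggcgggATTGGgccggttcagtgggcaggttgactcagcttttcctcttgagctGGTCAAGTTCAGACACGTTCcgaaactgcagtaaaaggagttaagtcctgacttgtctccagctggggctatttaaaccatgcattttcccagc

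SESN2 held CCAAT boxes starting at -151 and -86 and DDIT4 at -108 and -75, and SESN3 and CDKN1A held none. A CCAAT box was present in 9 of the 12 windows, some of which overlap, and in 34.6% of all 35116 windows of that length. CCACG was present in 4 of the 12 windows (of GADD45B, SESN1, SESN3 and DDIT4) and in 38.1% of all windows. The p53 response element, searched as 2 adjoining sites of the p53 consensus with up to 2 mismatches, none of them at the C or G of either site's core, was found in 2 of the 12 windows, which are overlapping windows of MDM2 (at -94 with 2 mismatches in the one printed), and in 0.285% of all windows. The core of the ATF4 and C/EBP composite element (TGATGNAA) was in 0 of the 12 windows and 3.62% of all windows, and the ER stress response element (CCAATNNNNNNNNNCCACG), which joins a CCAAT box to CCACG, was in 0 of 12 and in 0.0769%. A match is a run of letters in this window, and the absence of one covers the window alone.

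Other genes of these pathways were counted in 6 lists. For each list the background is the calls with thapsigargin over all tested genes, 3058 higher and 5100 lower. These were 2039 and 6424 after rescaling to TPM, 4014 and 3937 with median-ratio scaling, and 3716 and 4132 with quantile normalization. Whether a list departed from this background was not tested. Of 28 tested p53 targets, 4 were called higher and 11 lower with thapsigargin (median log2 fold change -0.12, against -0.13 for all tested genes), where 26.0% of all tested genes were called higher and 43.4% lower. The counts were 2 higher and 19 lower after rescaling to TPM, 5 and 9 with median-ratio scaling, and 5 and 6 with quantile normalization. The 4 of smallest p all fell: BTG2, an antiproliferative gene, by 0.97 (SE 0.106), POLH, a translesion polymerase, by 0.80 (SE 0.092), and TRIAP1, an apoptosis inhibitor, and TIGAR, a regulator of glycolysis, by 0.40 each. The TIGAR call was lost with quantile normalization (-0.13, limma adjusted p = 0.16). With PS19 lysate 0 of the 28 were called, and TP53I3 (0.26) and FDXR (0.14) had the smallest unadjusted p (limma adjusted p = 0.77 and 0.82). With thapsigargin TP53I3 rose by 0.25 (limma adjusted p = 0.073). That call was lost after rescaling to TPM (0.11), with no filter and at an adjusted p under 0.05. It was also lost without control replicate 3, 4 or 5 or thapsigargin replicate 2, 3 or 5 (0.20 to 0.25). Leaving out thapsigargin replicates 2 and 3 together lost it too (0.17). FDXR had 0.09, uncalled, and -0.063 after rescaling to TPM, and it was called higher with median-ratio scaling (0.22) and with quantile normalization (0.25).

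Of 13 genes for p53 and its regulators, 3 were called higher and 8 lower with thapsigargin (median -0.27), with 1 higher and 8 lower after rescaling to TPM, 5 and 4 with median-ratio scaling, and 1 and 5 with quantile normalization. MDM4, which encodes an inhibitor of p53 related to MDM2, rose by 0.43 (SE 0.081), whereas the acetyltransferase gene EP300 fell by 0.63 (SE 0.126), the damage kinase gene ATR by 0.60 (SE 0.130) and TP53BP1 by 0.50 (SE 0.115). With PS19 lysate EP300 had -0.11 and the damage kinase gene ATM -0.12, both uncalled, and ATM fell by 0.38 with thapsigargin, a call that was lost with quantile normalization (-0.11).

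Of 11 tested partners of the GADD45 proteins 2 were called higher and 9 lower with thapsigargin (median -0.55), and 2 were higher and 7 to 9 lower under the other scalings. The p38 kinase genes MAP2K3, MAP2K6 and MAPK14 fell by 1.12 (SE 0.079), 1.09 (SE 0.111) and 0.89 (SE 0.136), and the mitotic cyclin gene CCNB1 by 0.56 (SE 0.072). GADD45A, whose protein activates that kinase branch, was higher in the same libraries. With PS19 lysate CDK1 had -0.08 and MAP2K6 0.11, both uncalled, and CDK1 fell by 0.41 with thapsigargin.

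Among 19 CDK inhibitors, G1 cyclins, kinases and pocket proteins, 3 were called higher and 11 lower with thapsigargin (median -0.26), and 2 to 4 were higher and 9 to 12 lower under the other scalings. The G1 kinase gene CDK6 fell by 1.18 (SE 0.235), its cyclin gene CCND1 by 0.86 (SE 0.086), the pocket protein gene RBL2 by 0.48 (SE 0.103) and CDKN2C, an inhibitor of CDK4 and CDK6, by 0.43 (SE 0.076). With PS19 lysate CCND2 had -0.19 and RBL1 -0.15, both uncalled. With thapsigargin the cyclin gene CCND2 rose by 0.48 and the pocket protein gene RBL1 fell by 0.46.

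The GATOR, KICSTOR and Rag-Ragulator complexes pass the amino acid signal on which sestrins act, and 28 of their genes were tested. With thapsigargin 7 were called higher and 11 lower (median -0.03), with 6 higher and 13 lower after rescaling to TPM, 11 and 8 with median-ratio scaling, and 10 and 7 with quantile normalization. ITFG2, a KICSTOR subunit, rose by 0.91 (SE 0.091), SEC13, a GATOR2 subunit that also serves in vesicle coats, by 0.70 (SE 0.081), and NPRL2, a GATOR1 subunit, by 0.64 (SE 0.087). FLCN, which activates RagC and RagD, fell by 0.63 (SE 0.105). With PS19 lysate SLC38A9, the lysosomal arginine sensor, had -0.24 (limma adjusted p = 0.67) and LAMTOR2, a Ragulator subunit, 0.16, both uncalled. With thapsigargin LAMTOR2 rose by 0.39. SLC38A9 fell by 0.41 (limma adjusted p = 0.053). That call was lost with no filter, at an adjusted p under 0.05, with median-ratio scaling (-0.28) and with quantile normalization (-0.22). It was also lost without control replicate 4 (-0.37), control replicate 5 (-0.37), thapsigargin replicate 1 (-0.35) or thapsigargin replicate 2 (-0.28).

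Of 21 genes for the TSC-RHEB axis on which REDD1 acts and for mTORC1 and its outputs, 8 were called higher and 10 lower with thapsigargin (median -0.17), with 3 higher and 11 lower after rescaling to TPM, 9 and 4 with median-ratio scaling, and 5 and 7 with quantile normalization. EIF4EBP1, which encodes the translation repressor that mTORC1 inactivates, rose by 1.60 (SE 0.129), to 902 FPKM in thapsigargin cells, against 294.8 FPKM in control cells. Its paralog EIF4EBP2 fell by 0.84 (SE 0.108), MTOR by 0.45 (SE 0.081), and DDIT4L, the paralog of DDIT4, by 0.89 (SE 0.137). DDIT4L averaged 0.592 FPKM in thapsigargin cells and 1.52 FPKM in control cells, near the filter. With PS19 lysate MLST8, an mTORC1 subunit, had 0.11 and PRKAA1, a subunit of AMPK, -0.17, both uncalled. With thapsigargin MLST8 rose by 0.32, a call that was lost with quantile normalization (0.13), and PRKAA1 had -0.20, uncalled, but was called lower after rescaling to TPM (-0.36) and without thapsigargin replicate 3 (-0.30).

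With PS19 lysate 0 genes of the 6 lists were called by limma. The 24 genes named from thapsigargin had log2 fold changes of -0.11 to 0.11 with PS19 lysate, and the lowest limma adjusted p among them was 0.85.

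**Figure D5:**
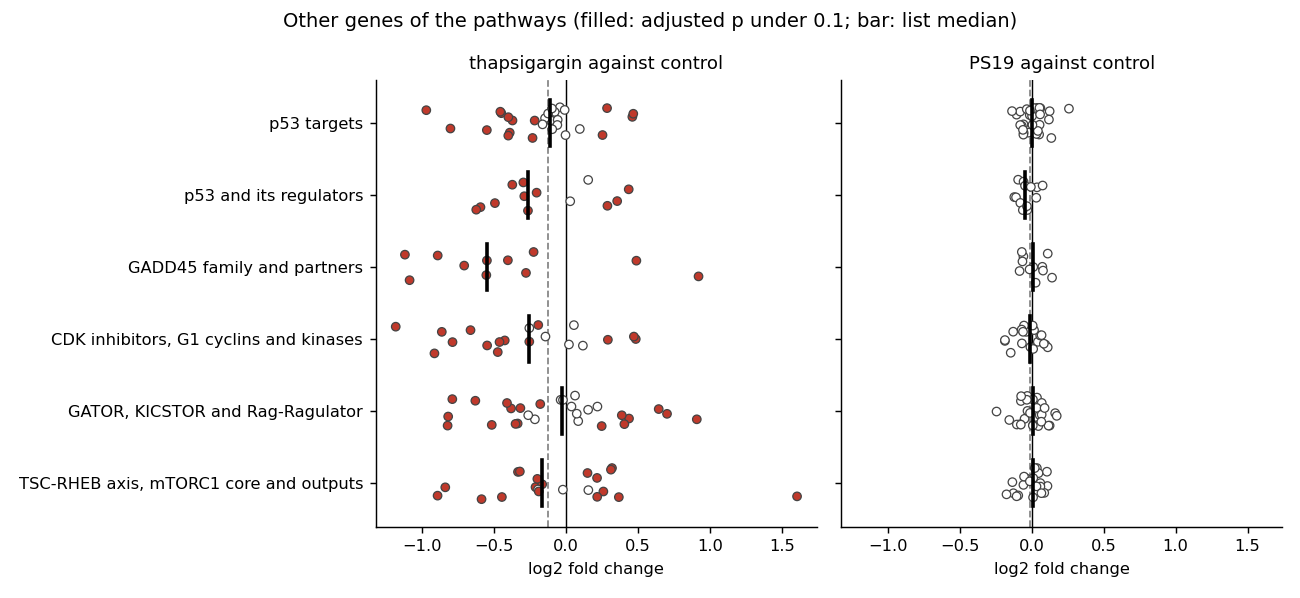
Log2 fold changes (horizontal axes) of the tested genes of the 6 pathway lists with thapsigargin (left) and with PS19 lysate (right), each against control; filled points passed an adjusted p of 0.1, bars are list medians and the dashed line is the median of all tested genes. Thapsigargin values ranged to 1.60 for EIF4EBP1, and no PS19 point was filled.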

How the data were processed

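RNA-Seq libraries were made from Biosensor cells and sequenced as stranded paired-end libraries. After read filtering in SOAPnuke, the authors used HISAT2 2.0.4 for alignment (build GRCh38.p12) and RSEM 1.2.12 for expression levels, per the methods and the submitters' processing notes. The deposited FPKM values have no stated scaling between libraries. Their methods name DESeq2 1.4.5 for differential expression, which needs counts and was not run here. In 1 control column text stood in rows without a gene, and only the gene rows were used. The 3 tables were joined by gene ID, and 26 symbols that spreadsheets had turned into dates were restored. The methods state a nominal read number per sample, but the depth of each library could not be recovered: of 2766 low genes, 48 (1.74%) had values in steps of whole reads.

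Libraries were grouped by their labels. log2(FPKM + 0.5) was fitted with limma 3.58.1 (R 4.3.3; moderated with a mean-variance trend, two-sided) for each pair of groups over genes whose mean reached 1 FPKM, with Benjamini-Hochberg adjustment over all of them and calls at an adjusted p under 0.1. Exact permutation tests used all 252 arrangements of 5 against 5 libraries. The script was tested on simulated data. The 8 genes, the lists and the tests were chosen with earlier results of these data known. Named were the 8 genes, from each list up to 4 genes of smallest unadjusted p with thapsigargin and up to 2 with PS19 lysate, and the 3 genes most like each of the 8. Same-numbered libraries were checked for deviating together, and since not every pair did, the numbers were not taken as pairs. Alternatives were pseudocounts of 0.1 and 1, a minimum mean of 5 FPKM or none, rescaling to TPM, median-ratio and quantile scaling, 1 fit of all 15 libraries, a replicate block, other variance settings, an adjusted p under 0.05 and leaving out each library.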

Additional observations from a re-analysis of the deposited data

Results flagged for a closer look

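In 126 groups of 5 libraries examined (the 8 genes and the genes named from the lists, in each group), 5 held a library farther from the others than Dixon's criterion allows, and chance flags about 1 in 20 groups. GADD45B had 4.97 FPKM in PS19 replicate 1, against 4.27 to 4.45 FPKM in the other PS19 libraries. DDIT4 had 141.47 FPKM in thapsigargin replicate 5, against 94.25 to 106.94 FPKM in the others. CDKN2C had 29.21 FPKM in thapsigargin replicate 4, against 24.11 to 25.3 FPKM. EIF4EBP1 had 310.42 FPKM in PS19 replicate 5, against 273.49 to 282.38 FPKM. MTOR had 19.39 FPKM in PS19 replicate 3, against 16.94 to 17.63 FPKM.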

How the results depend on the processing

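GADD45A, SESN2, SESN1 and SESN3 kept their direction and call with thapsigargin under each alternative run, except that SESN3 was not tested at a minimum mean of 5 FPKM. Against control, leaving out 1 library gave log2 fold changes of 1.60 to 1.70 for GADD45A, 1.47 to 1.57 for SESN2, -0.51 to -0.44 for SESN1 and -1.15 to -0.88 for SESN3. A minimum mean of 5 FPKM left 1 of the 8 called lower, against control and against PS19. GADD45B and SESN3, both called lower against control, were then not tested, and of them only SESN3 had been called against PS19.

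No setting gave a PS19 call among the 8. Over all genes, PS19 calls numbered 0 higher and 0 lower after rescaling to TPM and in 1 fit of all 15 libraries, 0 lower with no filter and at an adjusted p under 0.05, and 1 lower with median-ratio scaling and with no mean-variance trend. Leaving out 1 library gave 0 to 3 higher and 0 to 10 lower. Same-numbered libraries deviated together to differing degrees. Their correlations were -0.21 to 0.33 for PS19 and control and -0.06 to 0.23 for thapsigargin and PS19. For thapsigargin and control they were 0.48, 0.61, 0.35, -0.13 and 0.36, in order of replicate number. A library was most like its own number in 3 of 5 cases for PS19 and control. It was so in 1 of 5 for thapsigargin and control and 1 of 5 for thapsigargin and PS19. With the replicate block there were 6 higher and 7 lower PS19 calls over all genes and 0 among the 8, and DDIT4 was called higher with thapsigargin (0.29, limma adjusted p = 0.071).

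Signs turned for values near 0, none of them called in the main setting. With PS19 lysate SESN3 was 0.0014 with median-ratio scaling, 0.028 with quantile normalization and -0.085 to 0.068 leaving out 1 library. With thapsigargin against control CDKN1A was 0.020 with median-ratio scaling and 0.034 with quantile normalization, and MDM2 -0.11 after rescaling to TPM and -0.054 to 0.14 leaving out 1 library. Against PS19, GADD45B was 0.081 with quantile normalization, CDKN1A -0.13 after rescaling to TPM and -0.046 to 0.055 leaving out 1 library, and MDM2 -0.13 after rescaling to TPM, -0.091 to 0.10 leaving out 1 library and -0.0067 with thapsigargin replicates 2 and 3 left out. FDXR was -0.063 with thapsigargin against control after rescaling to TPM. GADD45B against PS19 was called lower after rescaling to TPM (-0.29, limma adjusted p = 0.064). The cause of these changes was not tested. Only a nominal read number per sample is stated, and the depth of each library is unknown. Counting error for the low genes SESN3 and GADD45B was therefore not computed.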
